A study of Mus musculus with 70 samples.

Results

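MHC class I antigen presentation was described here through 10 genes of the mouse pathway, out of 21159 gene symbols on the array. They are H2-K1 and H2-D1 (heavy chains), B2m (light chain), Tap1 and Tap2 (peptide transporter), Tapbp (tapasin), Psmb8, Psmb9 and Psmb10 (immunoproteasome subunits) and Nlrc5 (transcriptional regulator). Members were taken by gene name or transcript accession, without use of any measured value, and matched 12 of 55681 probes. H2-K1 and Nlrc5 had a pair of probes each, and the brighter probe stood for the gene. All 10 brighter probes were well above background in every RNA sample except that of Nlrc5, which passed in 62 of 65.

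Class I molecules show short peptides from inside the cell to CD8+ T cells. Proteasomes cut proteins into peptides, the TAP transporter carries these into the endoplasmic reticulum, tapasin helps load them onto a heavy chain bound to beta-2-microglobulin, and the loaded complex travels to the cell surface. Interferon-gamma raises most of these genes, in part through NLRC5, and swaps the constitutive catalytic subunits of the proteasome for Psmb8, Psmb9 and Psmb10. Tumour cells with low class I are poor targets for T cells and better targets for natural killer cells, which makes the pathway of interest in a carcinoma grown in immunocompetent mice.

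The cells were RENCA, a renal adenocarcinoma line of BALB/c origin, made to express GFP with a lentiviral vector. P0 is the line before any passage in mice. From P0, cells went through 6 rounds of injection into female BALB/c mice, recovery and culture by 3 routes, namely kidney injection with recovery from the kidney tumour (KPT), tail vein injection with recovery from lung metastases (T-LM), and kidney injection with recovery from lung metastases (K-LM). The 65 RNA samples comprised 2 of P0, then for P1 to P6 5, 2, 2, 3, 5 and 5 of KPT, 5, 2, 3, 4, 6 and 4 of T-LM, and 1, 1, 5, 3, 4 and 3 of K-LM. Per the study's methods, tumours and lungs were digested and the cells kept in culture before they were injected again, whereas the labels describe homogenised samples. All groups share the GFP vector, and BALB/c mice are immunocompetent. The labels tie no sample to an animal, so p-values measure only the spread between these samples. The T-LM P1 sample titled LOT1 carries no replicate number and was placed by its other labels.

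The label of the set held in the sense that all 10 transcripts were detected, including in P0, which never passed through a mouse. Markers of other cell types were above background in passaged samples, although per the study's methods cultures were kept until no cells lacking GFP were seen. None of 9 fibroblast markers was above background in P0, whereas the highest summed fibroblast signal reached 26.5 times the reference signal in a KPT P5 sample and 43.0 times in a T-LM P5 sample. The reference signal is the 75th percentile defined below. Of 16 myeloid markers, 5 were above background in any P0 sample, against 16 in KPT P4, 16 in KPT P5, 16 in T-LM P4 and 6 in K-LM P6. The summed myeloid signal was 2.09 to 2.56 in P0 and reached 11.3 in KPT P5. C1qa, C1qb and C1qc, complement genes of macrophages, were below background in P0 and in all K-LM samples. The same held in KPT P1, P2, P3 and P6 and in T-LM P2, P3 and P5. Other myeloid markers were found in K-LM, with 9 of 16 above background in any sample of K-LM P4 and 10 in K-LM P5. Of 13 lymphocyte markers on the array, 3 were above background in all samples of every group, and the summed signal of the list lay between 0.174 and 0.54. Cd79b, a chain of the B cell receptor complex, was above background in 2 of 4 T-LM P6 samples and below it in P0 and T-LM P2 to P5. It entered the fit from P0 to P6 only through T-LM P6, so its call there is no test of a rise. Of 9 endothelial markers, 3 were above background in all P0 samples, while Pecam1, Cdh5, Tek, Tie1, Emcn and Vwf were not in any. In any sample of KPT P6, T-LM P6 and K-LM P6, 3, 6 and 5 were above background. From P0 to P6, 0 of 4 or 5 endothelial markers tested were called (limma, 1, 0 and 2 at an unadjusted p under 0.05 in KPT, T-LM and K-LM). From P0 to P6, 3.8%, 7.34% and 5.57% of all probes tested were called in KPT, T-LM and K-LM. Of 9 listed fibroblast markers, 2, 6 and 6 passed the threshold. They were led by Dcn (at least 15.2-fold higher) for KPT, Col1a1 (at least 53.7-fold) for T-LM and Dcn for K-LM. Among myeloid markers 0 of 16, 5 of 16 and 1 of 10 tested passed. Mpeg1, a pore-forming protein of phagocytes, was at least 11.9-fold higher in T-LM and 2.93-fold higher in K-LM. Among 8 listed lung epithelial markers 1, 4 and 1 passed. In KPT and in K-LM this was the club cell gene Scgb1a1 (at least 1.62-fold and 4.42-fold higher). In T-LM they were Sftpc, Sftpd (at least 9.28-fold and 2.69-fold higher), Ager and 1 more. Only 3 of 12 renal epithelial markers were above background in P0, and their list had a summed signal of 16.7 to 18.2 in P0 and of 10.0 to 20.7 later. In that list Cdh16 was called in KPT (at least 2.7-fold higher than in P0) and Cdh1 in T-LM (at least 2.08-fold higher). Cdh1 was below background in P0 and T-LM P2 to P5. It entered the fit only through T-LM P6, so its call is no test of a rise. A mixture of cells and a change within the tumour cells cannot be told apart in such bulk samples, and neither can fewer cells of a type and less RNA per cell.

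Promoter sequences of H2-K1 and H2-D1 are shown first because their measured levels moved together and because the pair shares a stretch that the windows of the other members lack. They are from the RefSeq assembly GRCm38.p6 and hold the 250 bases before the gene start. That assembly is from another mouse strain, so BALB/c bases may differ. Capitals mark GGGGATTCCCC, the letters of the NF-kB element known from class I promoters, and AGTTTCACTT, the core of their interferon response element.
H2-K1 (chr17:34000348-34000597, minus strand): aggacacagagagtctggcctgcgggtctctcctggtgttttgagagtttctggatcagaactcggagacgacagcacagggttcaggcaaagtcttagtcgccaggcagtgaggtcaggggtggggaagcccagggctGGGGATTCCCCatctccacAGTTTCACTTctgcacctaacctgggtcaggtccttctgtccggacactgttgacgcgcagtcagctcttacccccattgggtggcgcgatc
H2-D1 (chr17:35262844-35263093, plus strand): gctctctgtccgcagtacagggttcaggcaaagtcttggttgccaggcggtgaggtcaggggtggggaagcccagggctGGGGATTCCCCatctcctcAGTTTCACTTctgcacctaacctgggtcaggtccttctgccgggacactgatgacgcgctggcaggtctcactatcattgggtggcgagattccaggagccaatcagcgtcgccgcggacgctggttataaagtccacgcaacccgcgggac

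The longest run of bases common to both stretches was 47 bases long. Counted from the start, the patterns began at positions -111 and -92 in H2-K1 and at -171 and -152 in H2-D1. These 2 patterns were picked after the stretches had been seen. Over 32851 RefSeq promoters of 300 bases, GGGGATTCCCC was found in 10 (0.0304%) and AGTTTCACTT in 46 (0.14%), on either strand. A match of letters is a description and not a binding site.

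The promoter of B2m is shown because it held the only match, among the 8 members with a window, to an interferon response pattern (GAAA, any 2 bases, GAAA) that 3.44% of all promoters hold. The match is in capitals and began at position -139.
B2m (chr2:122147437-122147686, plus strand): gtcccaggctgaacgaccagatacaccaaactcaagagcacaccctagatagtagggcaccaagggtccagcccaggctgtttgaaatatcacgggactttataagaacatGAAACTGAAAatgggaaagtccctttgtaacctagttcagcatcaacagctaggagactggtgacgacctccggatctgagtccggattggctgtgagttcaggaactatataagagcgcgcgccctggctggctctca

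Psmb9 and Tap1 lie head to head on chromosome 17, and the 225 bases between their starts are shown, on the strand of Tap1, because a single stretch serves a pair of genes whose levels differed in pattern below. It held no match on either strand to that pattern or to TTCNNNGAA, the pattern of STAT factors, which 8.3% of all promoters hold.
Tap1 and Psmb9 (chr17:34187331-34187555, plus strand): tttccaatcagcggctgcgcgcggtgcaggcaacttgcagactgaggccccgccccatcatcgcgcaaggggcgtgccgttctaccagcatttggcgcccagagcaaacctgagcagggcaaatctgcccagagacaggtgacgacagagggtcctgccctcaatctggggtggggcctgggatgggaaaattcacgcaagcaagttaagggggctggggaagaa

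TTCNNNGAA was found in the promoter window of Psmb8, beginning at position -97. The windows of Psmb10 and Tapbp held no match to either pattern. Tap2 and Nlrc5 have no entry in the promoter table. The promoter table lists a second start for H2-K1, whose window holds the same patterns.

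Levels are given as log2 signal after subtracting, on each array, the 75th percentile over the 12209 probes detected everywhere, so a level of 0 is as bright as that percentile. Levels of different genes come from different probes and are not compared. Changes are log2 differences fitted with limma, with their standard error (SE), and a gene was called changed where p, adjusted by Benjamini-Hochberg over all probes tested, did not exceed 0.01.

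**Figure D1:**
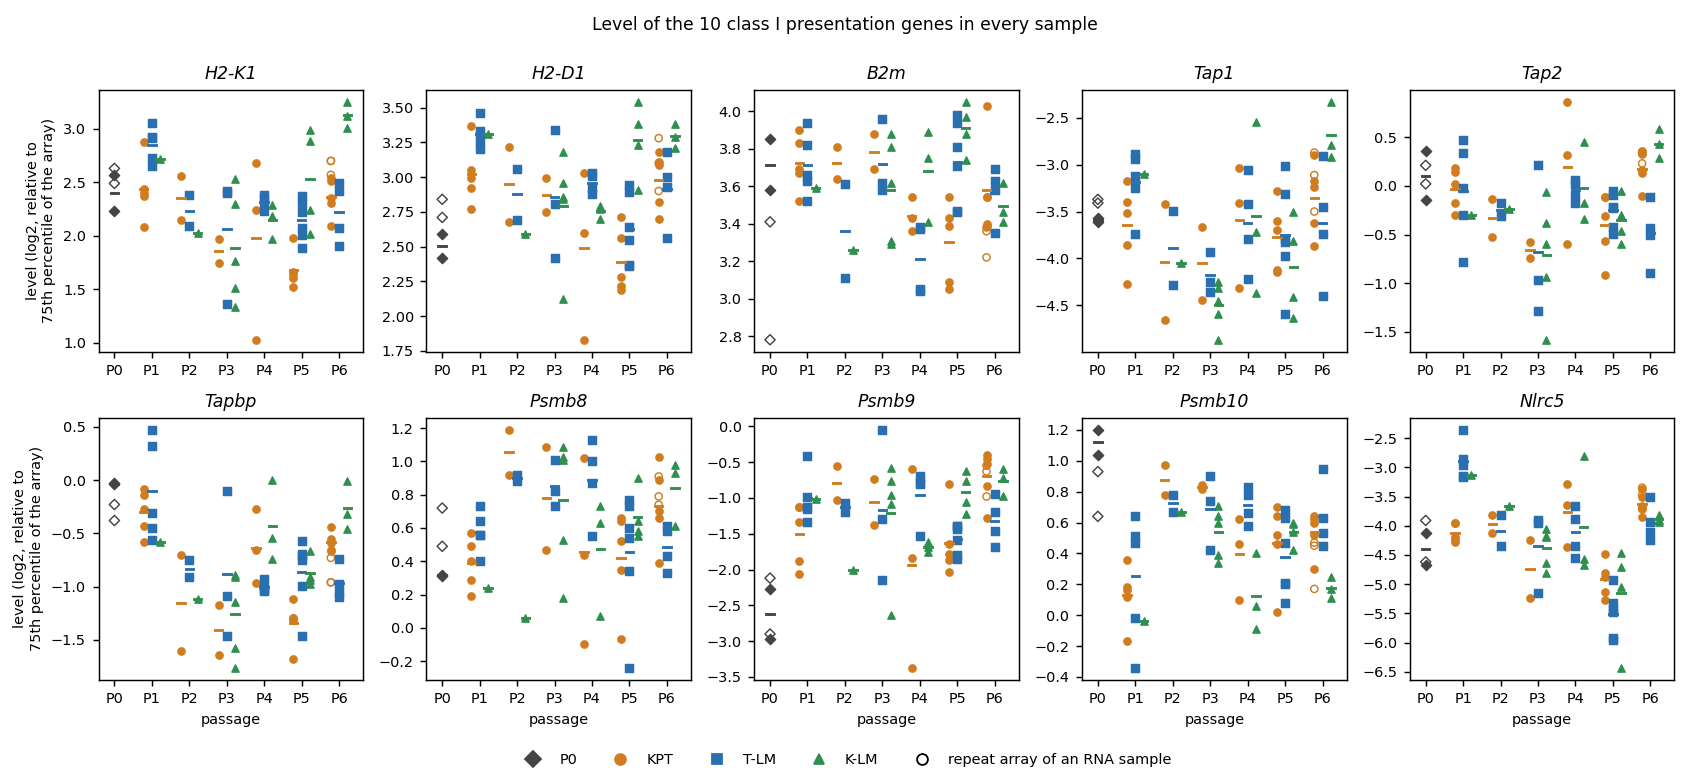
Level of each of the 10 genes (y axis, log2 relative to the 75th percentile of the array) by passage (x axis) and route. Points are RNA samples, horizontal bars are group means, and open points are repeat arrays of the same RNA. Psmb9 lay above both P0 samples in 61 of 63 later samples, and Psmb10 lay below both P0 samples in all 63.

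Across the 65 RNA samples the members differed in how far they moved. B2m covered the narrowest range, from 3.04 to 4.05, while Psmb9 ran from -3.37 to -0.05. Nlrc5 ran from -6.43 to -2.36, and its lowest values, in K-LM P5 replicate 3 and T-LM P5 replicates 1 and 3, were not well above background. The pooled SD within groups ran from 0.20 for B2m to 0.54 for Psmb9. The median of the members' within-group SDs was 0.33, beside 0.335 over 10474 genes detected in at least 50% of samples, and their median range was 2.22, beside 2.06. Spread between replicates was thus close to that of other genes.

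Psmb9 lay higher and Psmb10 and Tapbp lower than P0 in most samples of the passaged cells. Psmb9 measured -2.27 and -2.97 in the P0 samples. It was above the higher of these in 61 of 63 later samples, with a median of -1.15, and the only sample below both was KPT P4 replicate 5 at -3.37. Psmb10 measured 1.20 and 1.04 in P0 and was below both values in 63 of 63 later samples, with a median of 0.52 and a highest value of 0.97. Psmb8, at 0.32 and 0.31 in P0, was higher in 54 of 63 later samples. Tapbp, at -0.04 and -0.03 in P0, was below both in 59 of 63 later samples, with a median of -0.75. These counts all rest on the same 2 P0 samples. The late slide, scanned separately, held repeat arrays of P0 and KPT P6 and all K-LM P6 arrays. On it Psmb9 was above both P0 arrays in 6 of 6 later arrays, and Psmb10 was below both in 6 of 6. Tapbp was below both in 4 of 6 and above both in 1. Psmb8 read 0.72 and 0.49 on the P0 arrays of that slide, higher than on their first arrays, and 5 of 6 later arrays were above both.

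Psmb9 encodes a catalytic subunit of the immunoproteasome, replacing the constitutive Psmb6 subunit. KPT P6 samples measured -0.46, -0.52, -0.40, -0.83 and -1.28. T-LM P6 samples measured -1.46, -1.69, -0.95 and -1.20, while those of K-LM P6 measured -0.60, -0.72 and -0.97. All 12 P6 samples lay above both P0 samples. From P0 to P6 the fitted change was 1.81 (SE 0.379) in K-LM, a 3.5-fold rise, with a limma adjusted p of 0.00209. The change was 1.92 (SE 0.516, adjusted p = 0.0325) in KPT. It was 1.29 (SE 0.395, adjusted p = 0.0366) in T-LM, so that neither passed the threshold. The KPT fit pools the spread of its passages, and in KPT P4 Psmb9 measured -1.84, -0.60 and -3.37. Without KPT P4 replicate 5, an alternative chosen after seeing the data, 1 member was called in KPT. On the late slide alone the Psmb9 change in KPT was 1.79 (adjusted p = 0.00127). The K-LM call was lost without P0 replicate 2 (change 1.45, adjusted p = 0.0893) and without K-LM P6 replicate 1 (1.73, adjusted p = 0.012).

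Most of the Psmb9 difference was present after the first round in mice. At P1 it measured -2.06, -1.88, -1.12, -1.34 and -1.12 in KPT, and -1.33, -1.15, -0.99, -0.42 and -1.12 in T-LM, and the lone K-LM P1 sample measured -1.01. No P1 sample overlapped P0. The rise from P0 to P1 was called in T-LM (1.62, SE 0.37, adjusted p = 0.00923) and not in KPT, where the change was 1.12. The T-LM rise was called in 4 of 11 alternatives that kept all samples, the index as a covariate among them (1.96, adjusted p = 0.00311). It was not called without either P0 sample (1.27 and an adjusted p of 0.197 without replicate 2) or without T-LM P1 replicate 2, 3, 4 or 5. Group means of Psmb9 from P1 to P6 then ran -1.5, -0.79, -1.05, -1.94, -1.63 and -0.70 for KPT. They ran -1.0, -1.13, -1.17, -0.95, -1.57 and -1.33 for T-LM, against -1.01, -2.01, -1.21, -1.68, -0.92 and -0.76 for K-LM. The means followed no steady course over the passages in any route.

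Psmb10, another catalytic subunit of the immunoproteasome, was lower after the first passage. It measured 0.36, 0.16, 0.18, 0.12 and -0.17 in KPT P1, all below P0. The fitted change was -0.99 (SE 0.183, adjusted p = 0.00183), and it was no longer called without P0 replicate 1 or without P0 replicate 2. The balance of long against short transcripts, given by an index defined below, was -6.95 in P0 and -6.0 in KPT P1, and with the index as a covariate the change was -0.79 (adjusted p = 0.0189). The call was also lost with the replicate block, without a filter on dim probes and in a fit of only the groups compared. In T-LM P1 the values were -0.02, 0.47, 0.64, -0.34 and 0.51, again without overlap, and the change of -0.87 (SE 0.232) had an adjusted p of 0.0221. By P6 it measured 0.11, 0.17 and 0.25 in K-LM, where the change from P0 was -0.65 (SE 0.185, adjusted p = 0.0252). For P0 to P6 the values were -0.58 in KPT and -0.48 in T-LM, with adjusted p of 0.0836 and 0.149. Psmb10 arrays on the late slide read 0.26 lower on average than the first arrays of the same RNA, which the K-LM fit takes into account. For Psmb8, the subunit gene that lies between Tap1 and Tap2 on chromosome 17, the fitted changes were 0.42, 0.17 and 0.32 from P0 to P6 in KPT, T-LM and K-LM, with adjusted p from 0.469 to 0.767.

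In all, of 10 members, 0 were called from P0 to P6 in KPT (background 3.8% of 20978 probes), 0 in T-LM (background 7.34%) and 1, Psmb9, in K-LM (background 5.57%). At an unadjusted p under 0.05 in limma the counts were 4, 3 and 3. The median change of the members was 0.15, -0.09 and 0.34, beside -0.01, 0.02 and 0.03 over all probes tested. From P0 to P1 the threshold was passed by 1 member in KPT (background 4.54%) and 2 in T-LM (background 2.78%), and from P1 to P6 by 0 in KPT (background 11.6%, 3 at an unadjusted p under 0.05) and 1 in T-LM (background 9.05%). Calls at P0 rest on 2 samples, and all routes share them.

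**Figure D2:**
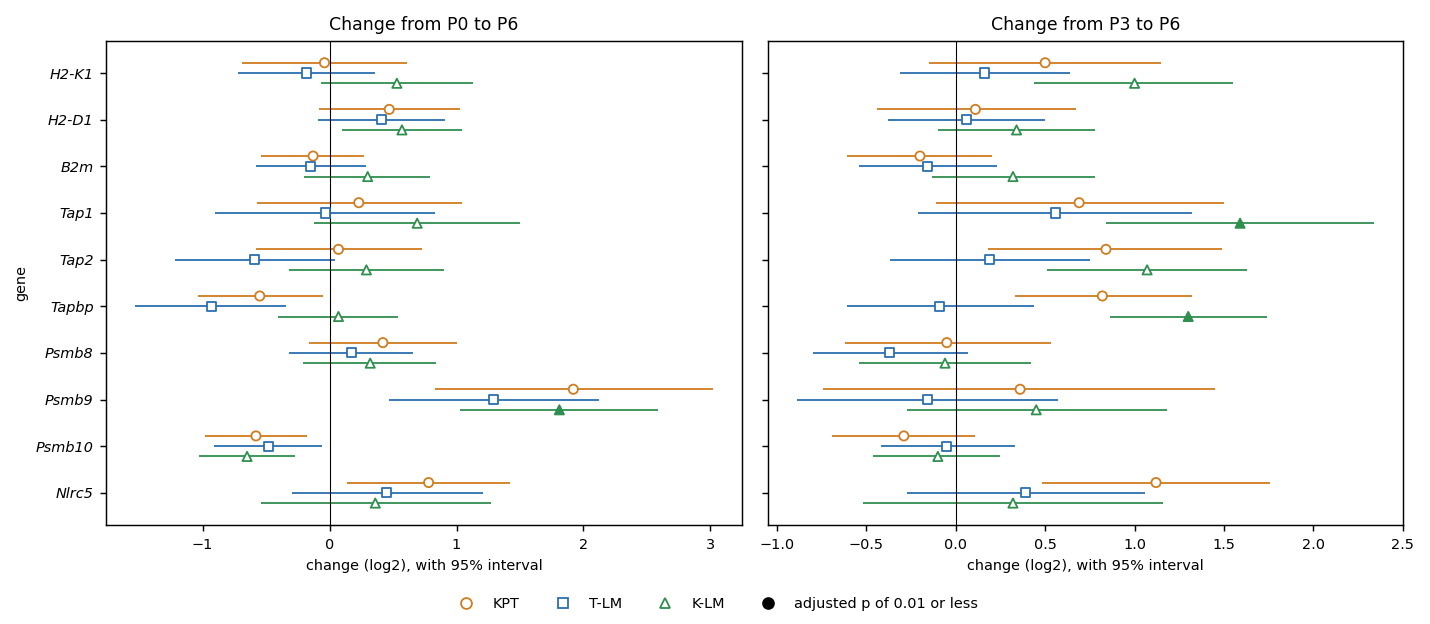
Fitted change of each gene (y axis) in each route, on the log2 scale with 95% intervals, from P0 to P6 (left) and from P3 to P6 (right). Filled markers passed an adjusted p of 0.01. Psmb9 in K-LM is filled on the left, and Tap1 and Tapbp in K-LM are filled on the right.

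The heavy chain genes and B2m, which together make the class I molecule, were not called from P0 to P6 in any route. H2-K1 measured 2.57 and 2.23 in P0, 2.09, 2.54, 2.35, 2.51 and 2.31 in KPT P6, 1.91, 2.07, 2.42 and 2.49 in T-LM P6, and 3.25, 3.12 and 3.01 in K-LM P6. Only the K-LM P6 samples lay apart from P0, and their change of 0.53 (SE 0.291) had an adjusted p of 0.323. The fitted changes of H2-D1 were 0.47, 0.41 and 0.57 in KPT, T-LM and K-LM, with adjusted p of 0.371, 0.346 and 0.133, although 51 of 63 later samples lay above both P0 samples. Those of B2m were -0.13, -0.15 and 0.30, with 95% intervals of -0.54 to 0.27, -0.58 to 0.29 and -0.20 to 0.79. The sign of the K-LM change rests on the late slide term. P0 averaged 3.71 for B2m on its first arrays and 3.10 on the late slide, against 3.50 in K-LM P6. For B2m a rise or fall of 2-fold lay outside the interval in each route.

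Both heavy chain genes had their lowest group mean in KPT P5. H2-K1 means from P1 to P6 were 2.43, 2.35, 1.86, 1.98, 1.68 and 2.36 for KPT. They were 2.85, 2.23, 2.06, 2.31, 2.15 and 2.22 for T-LM, against 2.72, 2.03, 1.89, 2.15, 2.53 and 3.13 for K-LM. The lowest group mean of H2-K1 was KPT P5 (1.68, SD 0.18, n = 5) and the highest K-LM P6 (3.13, SD 0.12, n = 3). For H2-D1 the mean was 2.39 in KPT P5 (SD 0.23, n = 5), against 2.87 in KPT P3, 2.49 in KPT P4 and 2.51 in P0. Neighbouring passages were not tested against each other. H2-K1 at 1.03 and H2-D1 at 1.83 had their lowest values of all 65 samples in KPT P4 replicate 5, which was the lowest of its group for 9 of the 10 genes. The second H2-K1 probe gave changes from P0 to P6 of 0.22, 0.08 and 0.59.

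Tap1 and Tapbp rose from P3 to P6 in K-LM. In K-LM P3, Tap1, which forms the transporter with Tap2, measured -4.25, -4.60, -4.32, -4.46 and -4.87, and in K-LM P6 it measured -2.92, -2.33 and -2.79. The groups did not overlap, and the change was 1.59 (SE 0.363, adjusted p = 0.00578), a 3.01-fold rise. Tapbp, whose product bridges the transporter and the empty class I molecule, measured -0.89, -0.91, -1.14, -1.76 and -1.58 in K-LM P3 and -0.32, -0.01 and -0.46 in K-LM P6. It changed by 1.30 (SE 0.213, adjusted p = 0.0004), a 2.47-fold rise, without overlap. The fitted change of Tap2 was 1.07 (SE 0.272, adjusted p = 0.0103) and that of H2-K1 1.00 (SE 0.269, adjusted p = 0.0142), short of the threshold, and the second H2-K1 probe gave 0.61. From P0 to P6 the fitted changes in K-LM were 0.69 for Tap1, 0.07 for Tapbp and 0.29 for Tap2, none of them called. For Tapbp the change from P0 to P6 was -0.93 (SE 0.284, adjusted p = 0.0364) in T-LM and -0.55 (SE 0.233, adjusted p = 0.211) in KPT, without overlap in either route. All 5 K-LM P3 samples lay below P0 for Tap1 and Tapbp.

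Of 10 members, 2 were thus called from P3 to P6 in K-LM (background 5.86%), against 0 in KPT (background 0.82%, 3 at an unadjusted p under 0.05) and 0 in T-LM (background 7.04%, 0 at an unadjusted p under 0.05). In KPT, which has 2 samples at P3, the fitted change of Nlrc5 was 1.12 (SE 0.3, adjusted p = 0.0371) and that of Tapbp 0.82 (SE 0.233, adjusted p = 0.0453). In T-LM the changes ran from -0.37 for Psmb8 to 0.56 for Tap1. The test of whether the change from P3 to P6 differed between routes called 0 members for T-LM against KPT (background 0.526%), 0 for K-LM against KPT (background 0.581%) and 0 for K-LM against T-LM (background 1.46%), with 1, 0 and 3 at an unadjusted p under 0.05. Tapbp came closest, with a K-LM change larger than the T-LM change by 1.39 (SE 0.338, adjusted p = 0.0107).

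The balance of long against short transcripts moved with these values. An index taken as the mean level of 19 long mRNAs minus that of 82 ribosomal protein mRNAs was -8.27 in K-LM P3 and -6.58 in K-LM P6, -8.33 and -6.71 in KPT, -7.88 and -7.04 in T-LM, and -6.95 in P0. Over the 65 samples, which share slides and the same array design, the Pearson correlation with the index was 0.76 for Tapbp, 0.66 for Nlrc5, 0.64 for Tap2 and 0.52 for Tap1, against -0.19 for Psmb9 and -0.43 for Psmb10. With the index as a covariate, the change from P3 to P6 in K-LM was 0.99 for Tapbp (adjusted p = 0.0249) and 1.40 for Tap1 (adjusted p = 0.105), and no member was called. Summed fibroblast marker signal was 0.206 to 0.494 in K-LM P3 and 0.972 to 2.99 in K-LM P6, with 4 of 9 fibroblast markers called higher (Postn, Col1a2, Pdgfrb and Col1a1), and its part in the result was not tested. Myeloid signal was 2.63 to 4.07 and 2.50 to 3.64, with 4 and 6 of 16 myeloid markers above background in all samples. The Tap1 call held in 6 of 12 alternatives that kept all samples. Besides the index, it was lost with the all-probe percentile, the deposited values, no filter on dim probes, slide as a random block and the replicate block, while Tapbp was lost with the index alone. The Tap1 call was also lost without any single K-LM P6 sample, at changes of 1.41 to 1.71, and without K-LM P3 replicate 4 or 5, whereas Tapbp stayed called in each of these fits.

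Nlrc5, the regulator of class I genes, was measured at low levels and was not well above background in 3 of the 65 samples. It measured -4.13 and -4.67 in P0 and -3.15, -3.16, -2.96, -2.85 and -2.36 in T-LM P1, the last being the sample titled LOT1. The rise of 1.5 (SE 0.34) was called, with an adjusted p of 0.00851, and did not overlap. The index was -5.86 in T-LM P1, against -6.95 in P0 and -7.04 in T-LM P6. With the index as a covariate the rise was 1.04 (adjusted p = 0.0331). Summed fibroblast signal was 0.0416 to 0.0424 in P0 and 0.404 to 16 in T-LM P1, where 3 of 9 fibroblast markers were called higher, and its part was not tested. By T-LM P6 the values were -3.94, -4.25, -3.50 and -4.10, a change from P1 of -1.05 (SE 0.272, adjusted p = 0.00946), or -0.55 (adjusted p = 0.205) with the index as a covariate. In the alternatives that kept all samples, the rise was called in 2 of 10 and the fall in 3 of 10, and both calls were lost with the all-probe percentile, normexp and the deposited values. The rise was not called without either P0 sample or without T-LM P1 replicate 2, 4 or 5 (changes of 1.24 to 1.77). The fall was not called without LOT1 (-0.92, adjusted p = 0.0266), without T-LM P1 replicate 2, 4 or 5, or without T-LM P6 replicate 1, 2 or 4. The lowest group mean was T-LM P5 (-5.50, SD 0.38, n = 6), where the lowest, median and highest values were -5.95, -5.45 and -4.93. Group means at P5 were -4.91 in KPT and -5.16 in K-LM. The second Nlrc5 probe was above background in only 3 of 65 samples. It was tested with limma only in the KPT fit that holds P1. It passed the filter there only with the KPT P1 samples. Its changes of 1.16 from P0 to P1 and -0.88 from P1 to P6 are therefore no test of KPT P1. The brighter probe gave 0.27 and 0.51 for these steps, neither of them called.

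**Figure D3:**
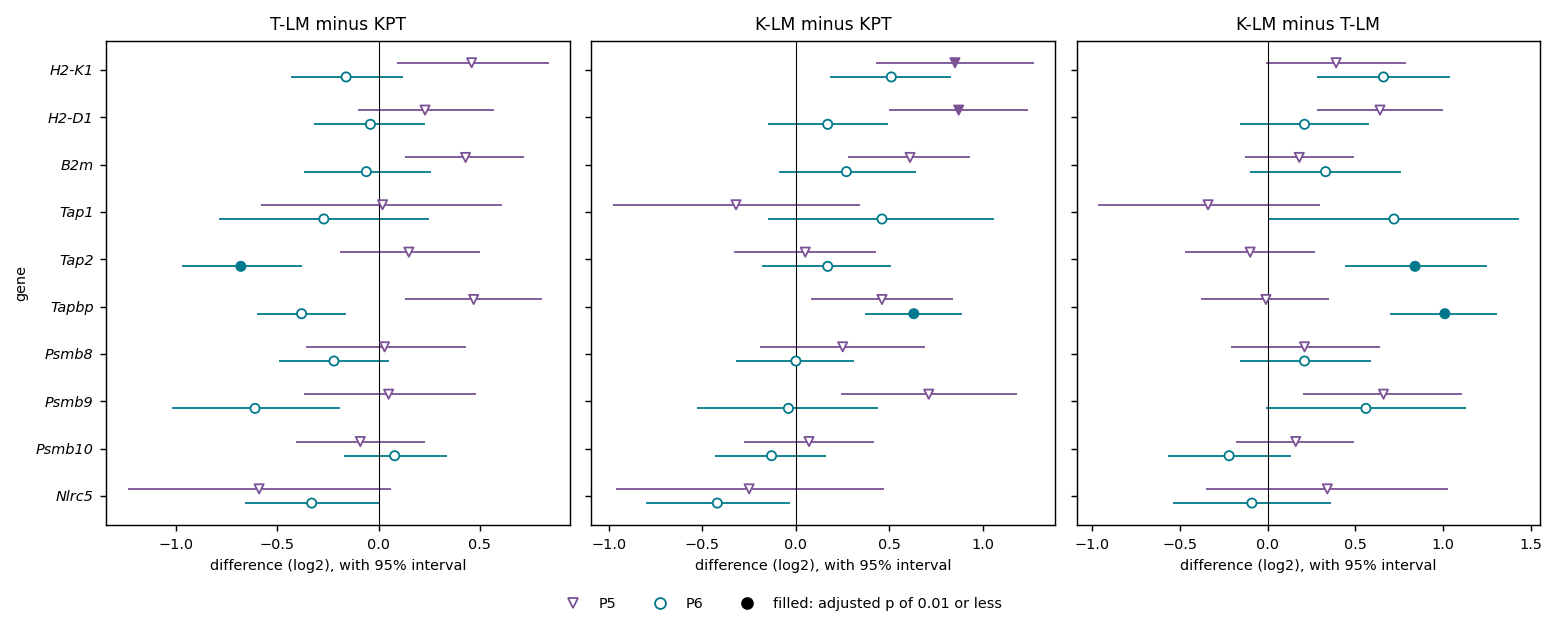
Difference of each gene (y axis) between routes at P5 and P6, on the log2 scale with 95% intervals, for T-LM minus KPT, K-LM minus KPT and K-LM minus T-LM. Filled markers passed an adjusted p of 0.01. Tap2 and Tapbp at P6 and H2-K1 and H2-D1 at P5 are filled.

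Between routes at P6, Tap2 and Tapbp were called and Tap1 was not (adjusted p from 0.138 to 0.545). In 1 fit over all routes and passages, none of these P6 differences was called. Tap2 measured -0.10, 0.36, 0.16, 0.33 and 0.13 in KPT. It measured -0.89, -0.43, -0.11 and -0.50 in T-LM, against 0.43, 0.58 and 0.29 in K-LM. T-LM lay below both other routes without overlap. The differences were -0.68 (SE 0.142, adjusted p = 0.00218) for T-LM minus KPT and 0.84 (SE 0.194, adjusted p = 0.00461) for K-LM minus T-LM, while K-LM minus KPT was 0.17 with a 95% interval of -0.18 to 0.51.

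Tapbp measured -0.44, -0.55, -0.67, -0.59 and -0.66 in KPT P6, -0.98, -1.05, -0.74 and -1.10 in T-LM P6, and -0.32, -0.01 and -0.46 in K-LM P6. K-LM was higher than T-LM by 1.01 (SE 0.145, adjusted p = 9.54e-05), a 2.01-fold difference without overlap, and higher than KPT by 0.63 (SE 0.124, adjusted p = 0.00115). K-LM and KPT overlapped on these arrays. On the late slide, KPT P6 ran from -0.96 to -0.73 and did not overlap K-LM P6, and the difference there was 0.62 (adjusted p = 0.0136). T-LM minus KPT was -0.38 (adjusted p = 0.0176). In 1 fit over all routes, K-LM minus T-LM was 1.02 (adjusted p = 0.0105) and K-LM minus KPT 0.64 (adjusted p = 0.0891). Without the late slide term the differences were 0.71 (adjusted p = 0.00127) and 0.32 (adjusted p = 0.0697).

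At P6, 1 of 10 members was called between T-LM and KPT (background 11.3%), 1 between K-LM and KPT (background 15.2%) and 2 between K-LM and T-LM (background 11.7%), counts close to the background. H2-K1 at P6 was higher in K-LM than in KPT by 0.51 (adjusted p = 0.021) and than in T-LM by 0.66 (adjusted p = 0.0135), short of the threshold. Summed fibroblast signal at P6 was 0.425 to 1.17 in KPT. It was 1.97 to 6.78 in T-LM, against 0.972 to 2.99 in K-LM. In T-LM P6, 8 of 12 tested myeloid markers were higher than in KPT and Cd68 was lower. Of those 8, Cd53, Laptm5 and Adgre1 were below background in P0 and at P6 of the other routes. So was Sftpc, the surfactant gene of alveolar cells, at least 15-fold higher in T-LM P6 than in KPT P6. These genes entered the fit only through T-LM P6, so their calls are no test of a difference. Whether these marker differences bear on the lower Tap2 of T-LM P6 was not tested. In 1 fit over all routes the Tap2 differences were -0.67 for T-LM minus KPT (adjusted p = 0.112) and 0.85 for K-LM minus T-LM (adjusted p = 0.0941). The Tap2 difference between T-LM and KPT was not called without KPT P6 replicate 4 or T-LM P6 replicate 1, that between K-LM and T-LM not without K-LM P6 replicate 1, K-LM P6 replicate 2 or T-LM P6 replicate 1, and that of Tapbp between K-LM and KPT not without K-LM P6 replicate 2.

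At P5, where no array lay on the late slide, the heavy chains differed instead. H2-K1 measured 1.98, 1.64, 1.66, 1.52 and 1.61 in KPT P5 and 2.24, 2.89, 2.02 and 2.99 in K-LM P5, without overlap, a difference of 0.85 (SE 0.195, adjusted p = 0.00841). H2-D1 measured 2.56, 2.71, 2.22, 2.28 and 2.19 in KPT P5 and 3.23, 3.54, 2.91 and 3.38 in K-LM P5, also without overlap, a difference of 0.87 (SE 0.174, adjusted p = 0.0037) or 1.83-fold. B2m was higher by 0.61 (adjusted p = 0.0138) and Psmb9 by 0.71 (adjusted p = 0.0385). Of 10 members, 2 were called between K-LM and KPT (background 7.39%), 0 between T-LM and KPT (background 5.27%) and 0 between K-LM and T-LM (background 3.4%), the last 2 with 3 and 2 at an unadjusted p under 0.05.

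The index was -7.54 in KPT P5 and -8.54 in K-LM P5, so here K-LM had the lower index and the higher heavy chains. With the index as a covariate the differences were 0.85 (adjusted p = 0.0701) and 0.79 (adjusted p = 0.06). Summed fibroblast signal was 0.432 to 26.5 in KPT P5 and 1.54 to 3.78 in K-LM P5, and summed myeloid signal 3.70 to 11.3 and 2.31 to 3.32, and their part was not tested. Leaving out any of K-LM P5 replicates 2, 3 or 6 or KPT P5 replicates 3 or 4 ended both calls, and leaving out KPT P5 replicates 2 or 5 ended that of H2-K1. The second H2-K1 probe gave 0.95 (adjusted p = 0.00436). Of the alternatives that kept all samples, the H2-K1 call held in 5 of 12 and that of H2-D1 in 8 of 11.

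The members did not move as a block. Over 45 pairs of members and 65 samples the median Pearson correlation was 0.19, from -0.39 for Tap1 with Psmb10 to 0.78 for H2-K1 with H2-D1. In 24 pairs the Benjamini-Hochberg adjusted p of a permutation test with 100000 permutations was 0.05 or less, 19 of them positive. After subtracting group means and permuting within groups this held for 11 pairs, all positive. The 24 came from permuting samples freely across groups, so differences between groups enter that count. No like count was taken over other gene pairs, so neither count is read as particular to the members. H2-K1 with H2-D1 had r = 0.78 and rho = 0.75, each with a permutation p of 1e-05, the smallest these permutations give, and adjusted p of 6.43e-05. Without the 2 samples farthest from the H2-K1 median r was 0.77, and within groups it was 0.69.

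H2-D1 with Psmb9 had r = 0.77 and rho = 0.73 (permutation p of 1e-05 and adjusted p of 6.43e-05 for each), 0.70 without the 2 farthest samples, and 0.82 within groups. Tap2 with Tapbp had r = 0.73 and rho = 0.70 with the same p-values, 0.69 without the 2 farthest, and 0.76 within groups. Psmb8 with Psmb9 had r = 0.67 and rho = 0.67 with the same p-values, 0.63 without the 2 farthest, and 0.61 within groups. Tap1 and Psmb9, which share the 225-base stretch printed above, had r = 0.19 and rho = 0.19 (permutation p = 0.136 and 0.132, adjusted p = 0.209 and 0.204), 0.19 without the 2 farthest, and 0.22 within groups. By these values H2-D1 was paired most closely with H2-K1 and Psmb9, and Tap2 with Tapbp. Class I genes are close in sequence, so cross-hybridisation between the heavy chain probes cannot be told apart from a shared course of H2-K1 and H2-D1.

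**Figure D4:**
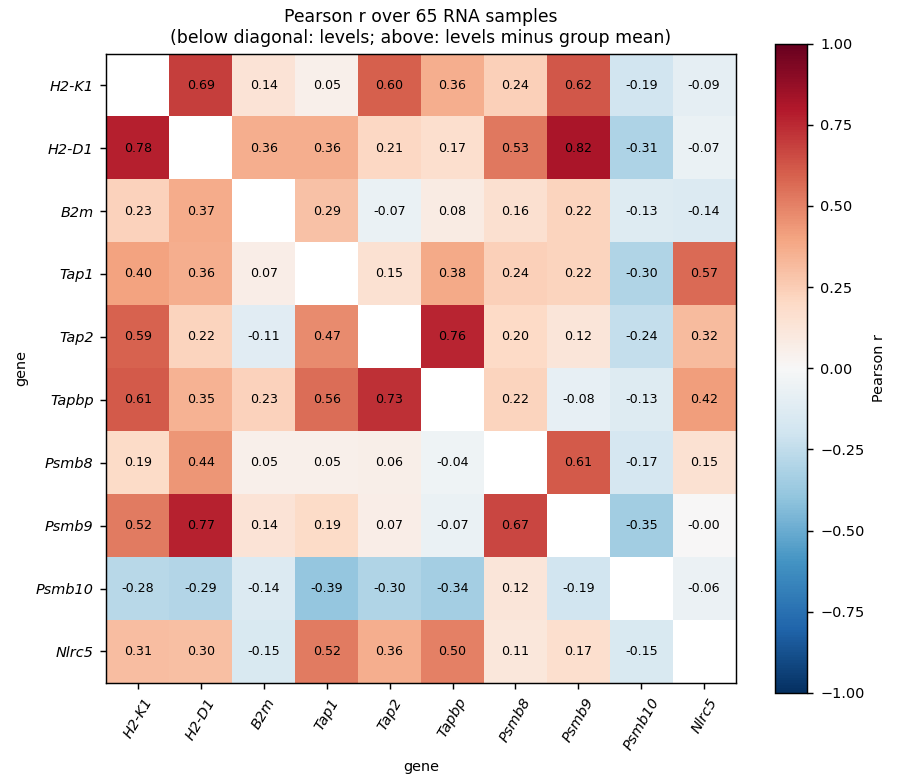
Pearson correlation between each pair of the 10 genes (both axes) over 65 RNA samples. Values below the diagonal use the levels and values above it the levels after subtracting group means. The strongest pairs are H2-K1 with H2-D1 (0.78), H2-D1 with Psmb9 (0.77) and Tap2 with Tapbp (0.73), and Psmb10 is mostly below 0.

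Genes outside the set that followed the mean standardised level of the 10 members most closely were class I relatives. Among 10464 genes and over 65 samples, the 10 highest Pearson correlations were H2-Q7 at 0.84, H2-K2 at 0.81, H2-Q2 at 0.78, LOC547349 at 0.76, H2-Q10 at 0.75, H2-T23 at 0.73, Gm11127 at 0.72, H2-Q8 at 0.72, Cp at 0.67 and Mst1 at 0.66. Class I genes are close in sequence, so cross-hybridisation with the heavy chain transcripts cannot be told apart from expression of these genes. Within groups the correlations of these 10 genes ran from 0.47 for Cp to 0.75 for H2-Q7. Cp encodes ceruloplasmin and Mst1 macrophage-stimulating protein.

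The partners of peptide supply and loading include chaperones of the endoplasmic reticulum, proteasome activators and constitutive proteasome subunits. None of the 12 or 13 tested was called from P0 to P6 or from P3 to P6 in any route or between routes at P6, with 1 to 5 at an unadjusted p under 0.05 in limma. Their median changes from P0 to P6 were 0.07, 0.02 and 0.01 in KPT, T-LM and K-LM. Among non-classical and other class I genes 0 of 12 or 13 tested were called from P0 to P6 (limma, 0, 2 and 5 at an unadjusted p under 0.05), with medians of 0.25, 0.06 and 0.49. At P6, Mr1, which presents vitamin metabolites, was higher in K-LM than in T-LM by 0.95 (adjusted p = 0.00207), a gene picked after its value was seen.

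Upstream of the set, genes of interferon signalling were listed, from receptors to inhibitors. Of 19 or 20 tested, 0 rose and 1 fell from P0 to P6 in KPT, while 2 rose in T-LM, against 4 in K-LM, beside 3.8%, 7.34% and 5.57% of all probes called in either direction. Socs3, an inhibitor of cytokine receptor signalling, rose by 3.63 (adjusted p = 4.21e-05) for T-LM and 3.33 (adjusted p = 5e-07) for K-LM. Stat2, a subunit of the type I interferon factor, rose by 1.96 in K-LM (adjusted p = 1.72e-05), and Stat3 by 1.41. Ifngr1, a chain of the interferon-gamma receptor, fell by 0.76 in KPT (adjusted p = 0.00132). Socs1, also called in T-LM and K-LM, was below background in P0. The median changes of the list were 0.08, 0.29 and 0.28.

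Of 30 interferon-stimulated genes tested, 1, 3 and 4 rose from P0 to P6 for KPT, T-LM and K-LM, and 0 fell, with median changes of -0.01, -0.14 and 0.54. The shares of all probes called were those given above, 3.8%, 7.34% and 5.57%. Gbp4, an interferon-induced GTPase, was below background in P0 and at least 4.54-fold, 2.8-fold and 4.54-fold higher at P6 of KPT, T-LM and K-LM. Oas2 rose by 3.15 in K-LM (adjusted p = 2.54e-05) and Gbp2 by 1.97 (adjusted p = 0.00197). Zbp1, a sensor of Z-form nucleic acids, rose by 1.66 in T-LM (adjusted p = 0.00598) and Oasl1 by 1.37 (adjusted p = 0.00763). At P6, 12 of the 30 were higher in K-LM than in T-LM and 8 higher in K-LM than in KPT, with 0 lower in either, and in T-LM 8 were lower than in KPT and 1 higher. Of all probes, 11.7%, 15.2% and 11.3% were called in these comparisons. The median differences were 0.71, 0.48 and -0.35, beside 0.45, 0.17 and -0.24 over the 10 members. At P5 the list and the members were less alike. The list medians there were 1.33 for K-LM minus T-LM, 0.9 for K-LM minus KPT and -0.39 for T-LM minus KPT. Those of the members were 0.2, 0.35 and 0.1, the last of opposite sign.

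Class II genes and ligands of lymphocyte receptors were also listed. Of 12 or 11 class II genes and regulators tested, 1, 3 and 2 rose from P0 to P6 in KPT, T-LM and K-LM, against the same 3.8%, 7.34% and 5.57% of all probes. H2-Ab1 was below background in P0 and at least 12.3-fold higher in T-LM P6 and 4.2-fold higher in K-LM P6, and Cd74, the invariant chain, rose by 1.47 in KPT and 1.61 in K-LM. H2-Eb1 was at least 6.4-fold higher and Creb1, a transcription factor of class II promoters among others, rose by 1.06 in T-LM. The myeloid markers Tyrobp and Fcer1g were at least 13.4-fold and 15.3-fold higher in T-LM P6 than in P0, and both were below background in all K-LM P6 samples. Among NF-kB subunits and feedback genes, Icam1, at least 1.17-fold higher in T-LM, was the only call from P0 to P6. Raet1e, a ligand of the activating receptor NKG2D, rose in each route, by 1.24, 1.72 and 1.26 for KPT, T-LM and K-LM, with adjusted p of 1.28e-05, 8.48e-07 and 0.00186, and Nectin2 by 1.42 for T-LM and 1.53 for K-LM. Cd47 rose by 1.05 and H60b fell by 1.5 in K-LM, and Ulbp1 fell by 0.91 in T-LM.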

How the data were processed

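RNA from 65 samples was measured on 70 single-colour Agilent mouse arrays over 9 slides, with repeat arrays for 5 RNA samples. The deposited scanner files hold intensity per spot, background-corrected by the authors' scanner software, and the deposited table of log2 values differed by at most 0.1066 from quantile-normalised log2 median intensities. Here the processed intensity was averaged per probe after leaving out control and outlier spots, and each array was centred on its 75th percentile over 12209 probes detected on all arrays. The share of probes well above background ran from 25.2% to 55.2% over the arrays. Precision is limited by how many arrays each group has. One late slide held 8 arrays, among them all K-LM P6 arrays. It entered the fits as a term, linked by the 5 repeated RNA samples.

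Probes above background on at least 2 arrays of a comparison were tested with limma 3.58.1 in R 4.3.3, with passages of a route in 1 fit, arrays of 1 RNA as a block and Benjamini-Hochberg adjustment over all probes at 0.01. Groups came from the sample labels. Comparisons were P0 to P6, P3 to P6, P0 to P1 and P1 to P6 within routes, routes at P5 and P6, and the difference in the P3 to P6 change. K-LM P1 and P2 hold 1 sample each and were not tested. A fold "at least" sets the brighter group against the lowest signal well above background. Correlations used scipy 1.17.1. The code was tested on simulated data.

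Alternatives were other scalings, filters, blocks and fits, the index as a covariate, and each sample left out. Leaving out KPT P4 replicate 5 or K-LM P3 replicate 3 from fits that do not compare them was chosen after seeing the data. The members and gene lists were chosen with earlier results of these data known. Named genes are the members, from each other list up to 3 called genes of largest change from P0 to P6 per route, and the 10 genes most like the members' mean. Other named genes, such as Mr1, Stat3, Cd47 and the cell markers outside this rule, were picked after their values were seen.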

Additional observations from a re-analysis of the deposited data

Results flagged for a closer look

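In 3 of 90 combinations of a gene and a group of 4 to 10 samples, 1 sample stood far from the others by Dixon's criterion, where chance flags about 5% of groups. B2m was high in KPT P6 replicate 1 (4.03, others 3.39 to 3.54). Psmb9 was low in T-LM P4 replicate 1 (-1.53, others -0.81 to -0.69) and in K-LM P3 replicate 3 (-2.64, others -1.09 to -0.58).

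Differences between routes passed the test for 6 gene and passage combinations. At P6, Tap2 differed by -0.68 for T-LM minus KPT and by 0.84 for K-LM minus T-LM, and Tapbp by 0.63 for K-LM minus KPT and 1.01 for K-LM minus T-LM. At P5, H2-K1 differed by 0.85 and H2-D1 by 0.87 for K-LM minus KPT.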

How the results depend on the processing

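Counts of called members follow, with the main count in the report, and the cause of each change was not tested. With only the groups compared, P0 to P6 gave 1, 1 and 2 for KPT, T-LM and K-LM, P0 to P1 gave 0 in KPT and 0 in T-LM, P1 to P6 in T-LM gave 0, and K-LM minus KPT at P5 gave 1. With all routes in one fit, P0 to P6 in KPT gave 1, P1 to P6 in T-LM 2, and each P6 comparison 0. On the late slide alone, P0 to P6 in KPT gave 1 and K-LM minus KPT at P6 gave 0. With the all-probe percentile, P0 to P6 in T-LM gave 1, P3 to P6 in K-LM 1, P0 to P1 in T-LM 1, P1 to P6 in T-LM 0, T-LM minus KPT at P6 2, K-LM minus KPT at P5 1, and the K-LM minus T-LM difference in change 1. With the index as covariate, P0 to P6 in T-LM gave 1, P3 to P6 in K-LM 0, P0 to P1 in KPT 0 and in T-LM 1, P1 to P6 in T-LM 0, K-LM minus KPT at P5 0, and the same difference in change 1. With normexp and quantile normalisation, and with the deposited values, P0 to P6 in K-LM gave 2, P1 to P6 in KPT 1, P0 to P1 in T-LM 0, K-LM minus KPT at P5 1 and the difference in change 1. An equal count can hide other members: P1 to P6 in T-LM kept a count of 1 there while the Nlrc5 call was lost. Likewise P3 to P6 in K-LM kept a count of 2 with the deposited values while the Tap1 call was lost. With slide as a random block, P0 to P6 in K-LM gave 2, P3 to P6 in K-LM 1, P0 to P1 in T-LM 1 and K-LM minus KPT at P6 2. Without the late slide term, P0 to P6 in K-LM gave 2, P3 to P6 in K-LM 4 and T-LM minus KPT at P6 0. Without a filter on dim probes, P3 to P6 in K-LM gave 1, P0 to P1 0 in both routes, P1 to P6 in T-LM 0, and K-LM minus KPT and K-LM minus T-LM at P6 0 and 1, with K-LM minus KPT at P5 0. A floor on dim probes, and a filter on all arrays, gave 1 for P0 to P1 in T-LM, and the latter 0 for P1 to P6 in T-LM.

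Shared replicate numbers were not used as pairs in the main fits. No comparison with 3 or more pairs had every correlation of deviations over 0.1 (-0.50 to 0.43 for T-LM minus KPT at P6). At P5, 3 of 4 pairs were over 0.1 for K-LM minus T-LM (-0.03 to 0.51) and 3 of 5 for T-LM minus KPT (-0.35 to 0.57). So few pairs cannot exclude a partial pairing. With the replicate block, P3 to P6 in K-LM gave 1, P0 to P1 0 in KPT and T-LM, P1 to P6 in T-LM 0, the P6 comparisons 0, 0 and 1, and K-LM minus KPT at P5 0.

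With 1 sample left out, counts ran 0 to 1 for P0 to P6 in KPT (1 without KPT P4 replicate 5) and in K-LM, 1 to 4 for P3 to P6 in K-LM, 0 to 1 and 0 to 3 for P0 to P1 in KPT and T-LM, 0 to 2 for P1 to P6 in T-LM, 0 to 2, 0 to 1 and 1 to 3 at P6 for T-LM minus KPT, K-LM minus KPT and K-LM minus T-LM, 0 to 1 and 0 to 2 at P5 for T-LM minus KPT (1 without T-LM P5 replicate 1) and K-LM minus KPT, and 0 to 1 for the K-LM minus T-LM difference in change. None of the called member changes turned direction in the alternatives run. For H2-K1 from P0 to P6, which was not called, the second probe gave 0.22 against -0.04 for KPT and 0.08 against -0.18 for T-LM.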
